A study of Mus musculus with 2 samples.

Results

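The genes described here are 10 effectors and targets of canonical Wnt signalling: the receptor gene *Lrp6*, the inhibitor genes *Dkk1*, *Axin1*, *Axin2* and *Nkd1*, the coactivator gene *Ctnnb1*, the DNA-binding partner genes *Lef1*, *Tcf7* and *Tcf7l2*, and the target gene *Sp5*. They were taken by gene symbol, and all 10 were found among the 21935 symbols of the deposited tables. RNA-Seq was performed on the mouse embryonic stem (ES) cell line R1 after 72 h without LIF, a cytokine added to keep such cells undifferentiated. The shKdm5b library came from cells that carry a lentiviral short hairpin RNA against *Kdm5b*, which encodes a demethylase of lysine 4 of histone H3, and the shLuc library from control cells with a hairpin against luciferase. Both cell populations were selected with puromycin, were grown on irradiated fibroblast feeders with LIF beforehand and, per the labels, were moved to low-attachment dishes when LIF was withdrawn, while the methods of the study name gelatin-coated dishes as well. How many hairpins or clones each population holds is not given in the sources used here. Cells for ChIP in the same study were passaged with 1.5 µM of the GSK3 inhibitor CHIR9901, which activates the pathway described here, and the sources do not say whether the RNA-Seq cells had been exposed to it before LIF was withdrawn.

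Each condition has 1 library, so no difference below has a replicate check, no p-value is given, and library and condition cannot be told apart. Levels are RPKM, read counts scaled to the length of the transcript and to the number of aligned reads. Differences are log2 ratios of shKdm5b to shLuc on the log2(RPKM + 0.1) scale, where the added 0.1 shrinks the differences of genes at low RPKM. Their 95% intervals were computed from read counts alone, without the added 0.1, and cover counting error only. A gene is called higher or lower when it had an RPKM above 1 in at least 1 library and differed by more than 1.5-fold.

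The libraries hold 78172698 (shLuc) and 72702698 (shKdm5b) aligned reads of 50 bases. Distinct start positions made up 32.9% of the aligned reads of the shLuc library against 20.1% for shKdm5b, so more reads of the shKdm5b library share a position. Amplified copies and separate fragments of abundant transcripts cannot be told apart, and the counting intervals treat every read as independent. *Kdm5b* itself was at 2.88% of its shLuc RPKM in the shKdm5b library. All 10 listed ES cell markers had an RPKM above 1 in at least 1 library, and 7 of them, such as *Sox2* at 237 and 272, were within 1.5-fold. In shKdm5b cells *Dppa5a* was called higher at 1096 and 1651, just past 1.5-fold. Its log2 ratio of 0.59 was 0.75 after the GC correction named below and -0.03 with transcript length added to that correction. *Pou5f1* was called lower at 619 and 182. *Esrrb* was called lower too, at 80.5 and 41.2 (log2 ratio -0.96, and -0.31 after the GC correction named below). Of 12 listed fibroblast markers 10 stayed below an RPKM of 1 in both libraries, the collagen gene *Col1a1* at 0.474 and 0.395. The summed RPKM of the 12 was 7.96 in shLuc and 7.76 in shKdm5b cells. Most of it came from *Thy1*, at 4.08 and 4.59, and *Acta2*, at 1.91 and 1.18. *Acta2* was called lower (log2 ratio -0.65, and -0.49 after the GC correction). Single markers went both ways, with *Pdgfra* at 260 and 54 reads and *Pdgfrb* at 212 and 322. The median log2 ratio of all 11804 genes above RPKM 1 was -0.21, and ratios were lower for transcripts of higher GC content, so values after a GC correction are given beside calls that it alters. That correction takes out the overall offset as well, to a median of -0.02, so its shifts are not due to GC content alone.

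In canonical Wnt signalling, a secreted Wnt ligand binds a Frizzled receptor together with the coreceptor LRP5 or LRP6. Without ligand, a destruction complex built on the scaffold AXIN marks β-catenin, the product of *Ctnnb1*, for degradation. With ligand the complex is held at the membrane, and β-catenin accumulates and enters the nucleus, where it joins TCF/LEF proteins on DNA and activates genes such as *Axin2*, *Sp5*, *Nkd1* and *Lef1*. Several of these targets encode inhibitors and so feed back on the pathway. In mouse ES cells Wnt signalling favours self-renewal, and in the embryo it is needed for the primitive streak.

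TCF/LEF proteins recognise a short core sequence, and the letters CTTTGAT and CTTTGAA were searched on both strands of the 250 bases before each start site in RefSeq (GRCm38.p6). The 2 words cannot overlap on the same strand. They were present in 7.48% of 32851 such windows of all genes, and in at least 1 window of 8.63% of 27025 genes. Windows were available for 8 of the 10 genes, not for *Axin1* and *Lrp6*, and the letters occurred in those of *Sp5* and *Dkk1* alone, 2 of 14 windows. Both genes had an RPKM below 1 in each library. Their stretches are shown because *Sp5* is widely used as a reporter of β-catenin and *Dkk1* encodes its feedback inhibitor, with the matched letters in capitals.
*Sp5*, chr2:70474673-70474922, plus strand: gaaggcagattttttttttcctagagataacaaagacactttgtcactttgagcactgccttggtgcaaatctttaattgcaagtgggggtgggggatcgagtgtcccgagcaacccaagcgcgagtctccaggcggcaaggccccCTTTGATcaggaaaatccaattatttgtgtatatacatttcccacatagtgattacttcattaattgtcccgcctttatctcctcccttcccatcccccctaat
*Dkk1*, chr19:30549595-30549624, minus strand: tcctcccaaagCTTTGAAatcccatcccgg
The match begins 104 bases before the start in *Sp5* and 117 bases before it in *Dkk1*, counted from the RefSeq start. The GENCODE M21 gene given below for *Dkk1* reaches farther upstream than that start and contains the printed stretch. Of the other 6 genes, *Ctnnb1*, *Axin2*, *Lef1*, *Tcf7*, *Tcf7l2* and *Nkd1*, none held either word in any of their 12 windows, which says nothing about sites elsewhere in these genes.

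The levels of the 10 genes spanned more than 3 orders of magnitude. In the shLuc library the order from highest to lowest RPKM was *Ctnnb1*, *Tcf7*, *Lef1*, *Axin1*, *Lrp6*, *Axin2*, *Tcf7l2*, *Nkd1*, *Dkk1* and *Sp5*. *Tcf7* and *Lef1* were neighbours in that order at a ratio of 1.01, and they separated to a ratio of 2.75 in the shKdm5b library. Of the 10 genes, 8 had an RPKM above 1 in at least 1 library, with *Nkd1* passing through the shKdm5b library only. *Tcf7* was called higher, *Axin1* and *Lef1* lower, and 5 genes differed by less than 1.5-fold. Over all 11804 genes above RPKM 1 the same rule called 48.3%, with 16.3% higher and 32% lower, so 3 of 8 is not more than the background. The median log2 ratio of all 10 genes was 0.06.

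**Figure D1:**
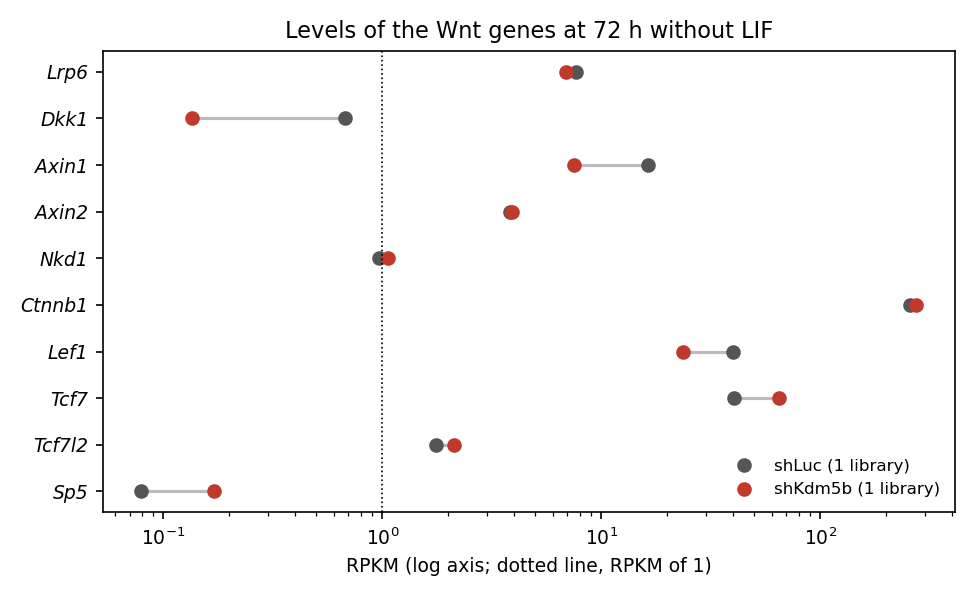
RPKM of each gene (log axis) in the shLuc (grey) and shKdm5b (red) library, 1 library each, ordered by role from the receptor to the target. *Ctnnb1* stands highest at 257 and 274, *Dkk1* and *Sp5* lie left of the dotted line at an RPKM of 1, and *Axin1*, *Lef1*, *Tcf7* and *Dkk1* show the widest gaps besides *Sp5*, which rests on 13 and 26 reads.

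LRP6 is the coreceptor that is phosphorylated when Wnt binds and then holds AXIN at the membrane. *Lrp6*, on chromosome 6 from 134446476 to 134566965 (GRCm38, GENCODE M21, as for the genes below), stood at an RPKM of 7.66 (5611 reads) in shLuc cells against 6.89 (4693 reads) in shKdm5b cells. The log2 ratio was -0.15 (95% counting interval -0.21 to -0.10), within 1.5-fold. Its sign turned under both library scalings, to 0.07 (TMM) and 0.08 (median ratio), so no direction is given for this gene.

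DKK1 is a secreted inhibitor that binds LRP5 and LRP6 and keeps them from the ligand. *Dkk1*, on chromosome 19 from 30545863 to 30549665, stood at an RPKM of 0.675 (118 reads) in shLuc cells against 0.135 (22 reads) in shKdm5b cells. Its shKdm5b level was 20.0% of the shLuc level, a 4.99-fold difference in RPKM, and its log2 ratio with the added 0.1 was -1.72 (counting interval -3.05 to -1.65), the lowest among the 10 genes. Both values lie below the RPKM threshold, so *Dkk1* is not among the calls. Among all 16846 genes with more than 3 reads in at least 1 library, 44.7% differed by more than 1.5-fold without an RPKM threshold, with 30.4% lower and 14.2% higher. The GC content of the *Dkk1* transcript is 45.9%, and the GC correction left its log2 ratio at -1.78. Markers of primitive endoderm, which in the embryo gives rise to the visceral endoderm where *Dkk1* is expressed, were lower in the shKdm5b library as well. All 8 listed markers, with *Pdgfra* also on the fibroblast list, had a lower RPKM there, and their summed RPKM went from 24.6 to 4.46. Only 3 of the 8 had an RPKM above 1 in at least 1 library, and these 3 were called lower, against 32% of all genes. Among the 3, *Dab2* was at 18.5 against 3.15 and *Gata4* at 2.58 against 0.539. The other 5 stayed below that level, with *Afp* at 65 reads against 0. *Foxa2*, also of these 5, had a log2 ratio of -0.66, and -0.08 after the GC correction. The part of these cells in the *Dkk1* difference was not tested, and in bulk RNA fewer cells of a type and less RNA per cell cannot be told apart.

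The AXIN proteins are the scaffolds of the destruction complex. AXIN1 is made constitutively, while *Axin2* is itself a target of β-catenin and is read as a measure of pathway activity. *Axin1*, on chromosome 17 from 26138688 to 26195811, stood at an RPKM of 16.3 (4671 reads) in shLuc cells against 7.53 (2010 reads) in shKdm5b cells. It was called lower, with a log2 ratio of -1.10 (counting interval -1.19 to -1.04), and its other RefSeq entry gave the same value to 2 decimals. At 55.5% its transcript is GC-rich, and the 2366 genes within 2 percentage points of that value had a median log2 ratio of -0.60. After the GC correction the ratio of *Axin1* was -0.50, inside 1.5-fold. *Axin2*, on chromosome 11 from 108920349 to 108950783, stood at an RPKM of 3.84 (1279 reads) and 3.90 (1208 reads), a log2 ratio of 0.02 (counting interval -0.09 to 0.14), whose interval includes 0. Corrected for GC and length together it was 0.72, past 1.5-fold.

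The pair of scaffold genes thus differed unequally. *Axin1* stood at 4.24 times the RPKM of *Axin2* in shLuc cells and at 1.93 times in shKdm5b cells. The log2 change of this ratio was -1.13 (counting interval -1.27 to -0.998). Library scaling cancels in such a ratio, and with GC contents of 55.5% and 54.6% the GC correction altered it little, to -1.06. The ratio of *Lrp6* to *Lrp5*, with unlike GC contents of 46.0% and 58.6%, did not hold in this way. It changed by 0.44 (counting interval 0.35 to 0.53), and by -0.45 after the GC correction.

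NKD1 binds Dishevelled, the protein that relays the receptor signal, and dampens the pathway. *Nkd1*, a β-catenin target on chromosome 8 from 88521354 to 88594884, stood at an RPKM of 0.970 (327 reads) and 1.06 (331 reads) in the shLuc and shKdm5b libraries. Its log2 ratio was 0.11 with a counting interval of -0.10 to 0.35, so no difference was detectable from the reads. Its second entry gave 0.17. The GC correction moved the first to 0.69, past 1.5-fold.

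*Ctnnb1* encodes β-catenin, which also links cadherins to the cytoskeleton. The gene, on chromosome 9 from 120929216 to 120960507, was the most abundant of the 10, with an RPKM of 257 (68777 reads) in shLuc cells against 274 (68232 reads) in shKdm5b cells. Its mean level exceeded that of 99.0% of the genes above RPKM 1. The log2 ratio was 0.09 (counting interval 0.08 to 0.11), and 0.42 after the GC correction, within 1.5-fold both times. β-catenin is regulated mainly as a protein, which these data do not measure.

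**Figure D2:**
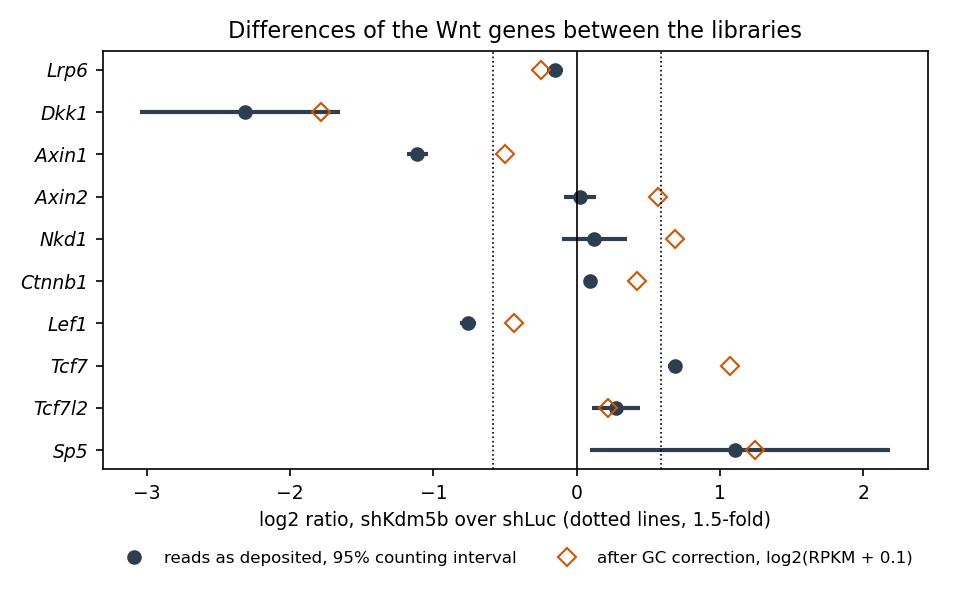
Log2 ratio of shKdm5b to shLuc for each gene, with circles for the reads as deposited, bars for the 95% counting interval, diamonds for the log2(RPKM + 0.1) ratio after the GC correction and dotted lines at 1.5-fold. *Axin1* and *Lef1* lie past the left line and their diamonds inside it, *Tcf7* lies past the right line under both, and the bars of *Dkk1* and *Sp5* are wide.

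LEF1, TCF7 and TCF7L2 bind the core sequence given above and recruit β-catenin, and they also hold target genes silent in its absence. *Tcf7*, on chromosome 11 from 52252371 to 52283014, stood at an RPKM of 40.3 (7056 reads) in shLuc cells against 64.8 (10536 reads) in shKdm5b cells. It was called higher, with a log2 ratio of 0.68 (counting interval 0.64 to 0.73), above that of 86.5% of the genes above RPKM 1. Its ratio lay between 0.67 and 1.07 under the alternatives tried, past 1.5-fold in each.

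*Lef1*, on chromosome 3 from 131110471 to 131224356, stood at an RPKM of 39.8 (7645 reads) in shLuc cells against 23.5 (4204 reads) in shKdm5b cells. It was called lower, with a log2 ratio of -0.76 (counting interval -0.81 to -0.70). TMM scaling brought it to -0.54 and the GC correction to -0.44, both inside 1.5-fold. *Tcf7l2*, on chromosome 19 from 55741820 to 55933654, was the least abundant of the family at 1.75 (548 reads) and 2.12 (616 reads). Its log2 ratio was 0.26 (counting interval 0.11 to 0.44), and its 8 entries ranged from 0.19 to 0.27.

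The remaining family member, *Tcf7l1*, which acts mainly as a repressor in ES cells, had an RPKM of 45.6 (9767 reads) in shLuc cells against 32.8 (6535 reads) in shKdm5b cells. Its log2 ratio of -0.47 lay within 1.5-fold and was 0.35 after the GC correction, so its sign depends on that step. Summed over the 4 genes, the RPKM was 127 in the shLuc and 123 in the shKdm5b library. Within this nearly equal sum, *Tcf7* made up 31.6% in shLuc cells against 52.6% in shKdm5b cells, *Lef1* 31.2% and 19.1%, and *Tcf7l1* 35.8% and 26.6%. The sum, its near equality and these shares are of RPKM as deposited only. After the GC correction the log2 ratios were 1.07 for *Tcf7*, 0.35 for *Tcf7l1*, 0.22 for *Tcf7l2* and -0.44 for *Lef1*. The log2 change of the *Tcf7* to *Tcf7l1* ratio was 1.16 (counting interval 1.10 to 1.22), and 0.72 after the GC correction. The log2 change of the *Tcf7* to *Lef1* ratio was 1.44 (counting interval 1.37 to 1.51). The GC contents of these transcripts are 52.3% and 51.4%, and the change was 1.51 with the GC correction, or 1.49 with length added to it.

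**Figure D3:**
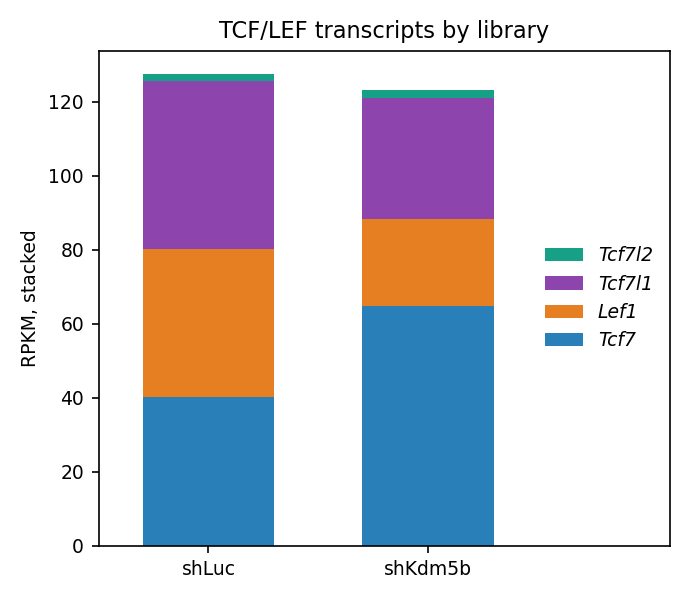
Stacked RPKM of the 4 TCF/LEF genes in each library as deposited, without the GC correction, 1 library per bar. The bars reach 127 (shLuc) and 123 (shKdm5b), and the *Tcf7* segment at the bottom grows from 40.3 to 64.8 while the *Lef1* and *Tcf7l1* segments are smaller in the shKdm5b library.

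SP5 is a zinc finger transcription factor whose gene is a direct β-catenin target. *Sp5*, on chromosome 2 from 70474923 to 70477729, stood at an RPKM of 0.0793 (13 reads) in shLuc cells against 0.171 (26 reads) in shKdm5b cells, the lowest level of the 10 genes in shLuc cells. Its log2 ratio was 0.59, and the counting interval of 0.09 to 2.19 is wide. At this depth the size of the difference cannot be given more closely.

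The target genes among the 10 did not share a direction. *Tcf7* was higher and *Lef1* lower by more than 1.5-fold, *Axin2* and *Nkd1* had intervals that include 0, and the low-level *Dkk1* and *Sp5* lay on opposite sides. The *Lef1* call was lost under either library scaling and under the GC correction, while *Nkd1* passed 1.5-fold after the GC correction and *Axin2* once length was added to it.

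The other genes of the pathway were described from a list of 109 genes in 9 roles, all present in the tables, of which 99 are not among the 10. Of these 99 genes, 54 had an RPKM above 1 in at least 1 library, 5 were called higher and 19 lower, or 9.26% and 35.2% against the 16.3% and 32% over all genes. With the 10 genes included, 27 of 62 were called. Of these, 6 passed an RPKM of 1 only in the library where they were high. They were 3 called higher (*Wnt8a*, *Msx2* and *Pygo1*) and 3 called lower (*Fzd9*, *Sfrp5* and *Apcdd1*). With an RPKM above 1 required in both libraries, 3 of 55 were higher and 18 lower, for which no share of all genes was computed. The split of 6 higher and 21 lower became 8 and 14 after TMM scaling, which raised log2 ratios by 0.22. The share of all genes after that scaling was not computed, so these counts cannot be set against the shares above. After the GC correction the split was 13 and 10, with 18.6% of all genes higher and 18.1% lower. The counts by role below are small, and each is to be read against these shares of all genes.

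Of 19 Wnt ligand genes, 18 stayed below an RPKM of 1 in both libraries. *Wnt8a*, whose product acts in the early embryo, was the exception, at 0.539 (64 reads) in shLuc cells against 1.36 (150 reads) in shKdm5b cells, a log2 ratio of 1.19 (counting interval 0.90 to 1.78). *Porcn*, which encodes the acyltransferase that lipid-modifies Wnt proteins, was within 1.5-fold at 13.6 and 11.4, with a log2 ratio of -0.25 that the GC correction turned to 0.47.

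Among 11 Frizzled and LRP genes above RPKM 1, 4 were called lower and 1 higher, against 1 lower (*Fzd9*) and 1 higher (*Fzd10*) after the GC correction. *Fzd7*, the most abundant receptor gene, had an RPKM of 62.0 and 45.3 in the shLuc and shKdm5b libraries, a log2 ratio of -0.45 that the GC correction brought to 0.05. *Fzd5* was lower at 9.69 and 5.04 (log2 ratio -0.93, and -0.52 after the GC correction, inside 1.5-fold) and *Fzd9* at 1.84 and 0.606 (-1.46). *Fzd10* was higher at 1.01 and 2.37, a log2 ratio of 1.15, and 1.81 after the GC correction. In the R-spondin module, which sets how many receptors stay at the surface, 0 of 3 genes above RPKM 1 were called, and the receptor gene *Lgr4* was at 23.7 and 23.3. The ligand gene *Rspo1*, at 2.67 and 3.37, had a log2 ratio of 0.32 and passed 1.5-fold after the GC correction, at 1.15.

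Secreted inhibitors and their partners were called lower in 4 of 8 genes above RPKM 1 and higher in 0, and after the GC correction 2 were lower (*Notum* and *Sfrp5*) and 1 higher (*Sfrp2*). *Notum*, which encodes a hydrolase that removes the lipid of Wnt proteins and is a feedback target, had an RPKM of 11.8 (1851 reads) in shLuc cells against 1.99 (290 reads) in shKdm5b cells. Its log2 ratio of -2.51 (counting interval -2.75 to -2.39) was the lowest of the 62 pathway genes above RPKM 1, and it was -1.78 after the GC correction. The primitive endoderm markers given above were lower in the same library, and their part in the *Notum* difference was not tested. *Sfrp5*, for a secreted Frizzled-related protein, was at 1.15 and 0.290 (log2 ratio -1.68). *Kremen1*, for a receptor of DKK proteins, was at 5.46 and 2.65 (log2 ratio -1.02, and -0.45 after the GC correction). *Sfrp2* had the highest level of this role, 13.9 and 20.9, a log2 ratio of 0.58 just inside 1.5-fold, which library scaling moved past that line and the GC correction to 1.01.

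In the cytoplasm, 3 of 8 transducer genes were called lower and 0 higher. The GC correction turned this balance, with 1 lower (*Dact2*) and 3 higher (*Dvl3*, *Nkd1* and *Dact3*). *Dvl1* and *Dvl2*, which encode Dishevelled proteins, had log2 ratios of -1.35 (9.28 and 3.59 RPKM) and -1.32 (29.1 and 11.6 RPKM), against -0.17 for *Dvl3* (6.76 and 5.99 RPKM). The ratio of *Dvl1* to *Dvl3* differed by -1.20 on the log2 scale (counting interval -1.35 to -1.04) and by -1.18 after the GC correction, which brought *Dvl1* to -0.48 and *Dvl2* to -0.52, inside 1.5-fold, and *Dvl3* to 0.70. *Dact2*, for a Dishevelled-binding protein, was at 7.15 and 1.99, a log2 ratio of -1.79.

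Of 11 destruction complex genes above RPKM 1, 4 were called lower and 1 higher, or 3 lower and 0 higher after the GC correction. *Amer1*, listed under its older symbol Fam123b, for a protein that binds APC, was lower at 6.69 and 2.32 RPKM (log2 ratio -1.49, and -1.53 after the GC correction). *Tnks*, for a tankyrase that marks AXIN for degradation, was lower at 14.0 and 6.87 (log2 ratio -1.02, and -1.06 after the correction). Its paralogue *Tnks2* was more abundant and within 1.5-fold, at 80.1 and 92.1 (log2 ratio 0.20, and -0.01 after the correction). *Csnk1a1*, for the kinase that primes β-catenin, was the most abundant of these genes and was higher, at 119 and 195 (log2 ratio 0.72, and 0.42 after the correction, inside 1.5-fold).

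Of 15 nuclear genes above RPKM 1, 5 were called lower and 2 higher. The GC correction turned this balance too, to 2 lower (*Pygo2* and *Tle4*) and 5 higher (*Tcf7*, *Tle1*, *Tle3*, *Tle5* and *Bcl9l*). *Pygo2*, for a partner of the β-catenin coactivator BCL9, was lower at 17.9 and 7.11 (log2 ratio -1.32). *Cby1*, for a β-catenin antagonist, was at 9.60 and 5.35 (log2 ratio -0.83, and -0.22 after the GC correction). *Tle4*, for a Groucho corepressor of TCF/LEF proteins, was at 85.5 and 48.9 (log2 ratio -0.80, and -0.78 after the correction). Either library scaling, TMM or median ratio, brought *Tle4* just inside 1.5-fold.

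Among 24 listed target genes, 10 had an RPKM above 1 in at least 1 library, with 4 lower and 2 higher, or 2 lower (*Notum* and *Ccnd1*) and 3 higher (*Tcf7*, *Msx2* and *Nkd1*) after the GC correction. Besides *Notum*, *Lef1* and *Tcf7*, *Ccnd1*, for the G1 cyclin D1, was lower at 57.0 and 29.9 RPKM (log2 ratio -0.93). Its ratio was -0.65 after the GC correction, and -0.50 with length added, inside 1.5-fold. *Msx2*, for a homeobox factor, was higher at 0.627 and 1.54 (log2 ratio 1.17, counting interval 0.96 to 1.64), passing the RPKM threshold in the shKdm5b library only.

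**Figure D4:**
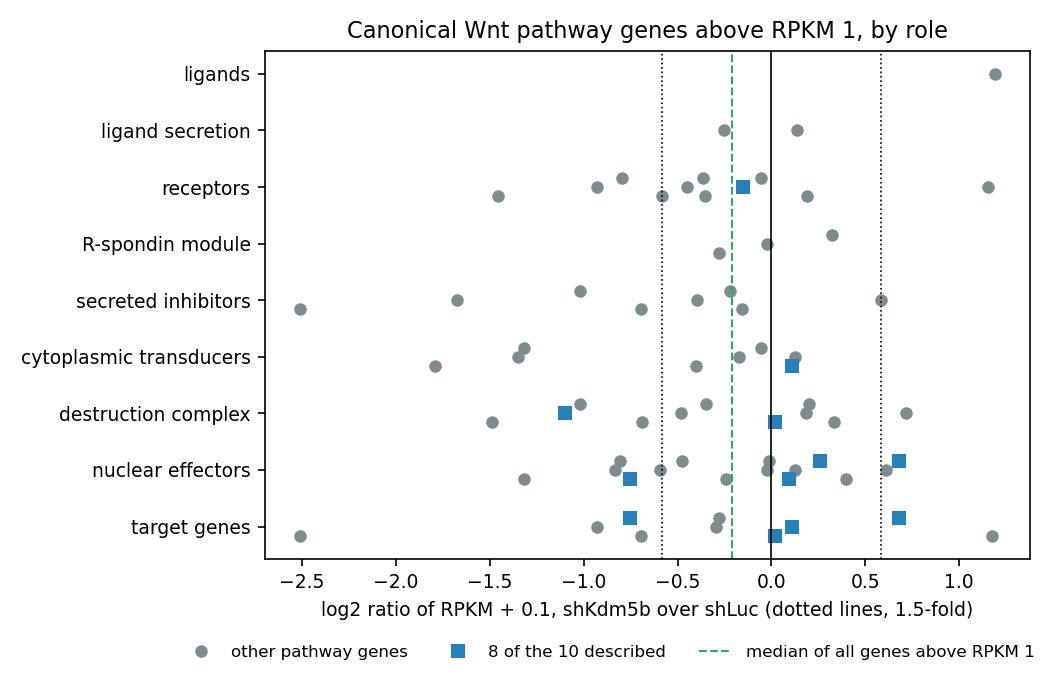
Log2 ratio of shKdm5b to shLuc on the log2(RPKM + 0.1) scale for the pathway genes above RPKM 1 in at least 1 library, by role, with squares for the 8 described effectors and targets and circles for other genes. The dashed line is the median of all genes, -0.21, and the dotted lines mark 1.5-fold. Genes with several roles appear in each, and in the secreted inhibitors no point lies past the right line before the GC correction.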

How the data were processed

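Polyadenylated RNA of shLuc and shKdm5b ES cells was sequenced in 1 library per condition. The authors deposited a whole-number read count, a length and an RPKM for each RefSeq entry, and the aligned reads. The submitters' processing notes name CASAVA 1.0, Bowtie 0.12.7 and build mm8, and the counting program is not given in the sources used here. RPKM follow from the deposited counts, lengths and the number of aligned reads. The deposited coordinates of the aligned reads all span 50 bases, so no read is split over an intron, and they were used to count reads and distinct positions only. The genome given here is GRCm38, so the gene positions printed are those of the annotation, not of the aligned reads. Counting is not stated to use strand.

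Where a symbol had several entries, that of highest mean RPKM stands for the gene. The pseudocount was 0.1, and calls used a fold of 1.5 and an RPKM of 1. Counts were not tested, since a dispersion cannot be estimated from 1 library per condition. Intervals are exact Clopper-Pearson intervals, and those of a ratio between genes come from the odds ratio of the reads. TMM factors came from edgeR 4.0.16 (R 4.3.3). The GC correction subtracts a smoothed trend of log2 ratios against transcript GC content (lowess in statsmodels 0.14.6, fraction 0.3), matched through the RefSeq accession for 97.1% of symbols and all 109 pathway genes. The trend was not centred, so the overall offset between the libraries is subtracted with it. The steps were tested on simulated data. Other calculations used Python 3.11.15, pandas 2.3.3 and SciPy 1.17.1.

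The genes and lists were chosen with earlier results of these data known. Named pathway genes are, in each role, up to 3 called genes with the largest log2 ratio and the gene with the highest mean RPKM, besides the 10 genes, *Kdm5b* and *Tcf7l1*. Gene pairs, and the genes named as markers or beside a count after the GC correction or a paralogue, were chosen after their values were seen. Alternatives were pseudocounts of 1 and 0.01, TMM and median-ratio scaling, summed entries, other level filters, a fold of 2, and corrections for GC content and for GC content and length.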

Additional observations from a re-analysis of the deposited data

How the results depend on the processing

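No paired analysis was possible because only a single shLuc and a single shKdm5b library were compared, and leaving out a replicate would leave nothing to compare. The 3 calls, of 8 genes above the level filter, became 5 of 10 without it, which adds *Dkk1* (lower) and *Sp5* (higher). With a fold above 2, 1 of 8 remained, *Axin1*. After TMM or median-ratio scaling 2 of 8 remained, *Tcf7* and *Axin1*. Of the 8 genes, the GC correction left 0 lower and 2 higher, *Tcf7* and *Nkd1*, against 18.1% lower and 18.6% higher over all genes. With length added 3 were higher, with *Axin2* joining them. The 27 of 62 called pathway genes became 41 of 109 without a level filter and 14 of 62 with a fold above 2. Without the filter 44.7% of all genes with more than 3 reads in at least 1 library were past 1.5-fold. The 109 also hold 6 genes with at most 3 reads in both libraries. No share of all genes was computed for a fold above 2, the scalings or the length correction, so those counts have no background beside them. The 10 genes' median of 0.06 moved to 0.27 with TMM and 0.29 with median-ratio scaling, to 0.32 with the GC correction and to 0.46 with length added to it. Both scalings raise ratios, by 0.22 and 0.24 at levels where the pseudocount has no weight. The GC correction also takes out the overall offset, with the median of all genes above RPKM 1 going from -0.21 to -0.02, so it overlaps with the scalings. Of 70 values of single genes under the alternatives, 38 stayed within the counting interval and 3 changed sign, all of them for *Lrp6*. Depth limits *Dkk1* and *Sp5* most, and the pseudocount of 1 brought *Dkk1* to -0.56 and *Sp5* to 0.12.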

Other observations

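Some target genes that mark the primitive streak and posterior embryo had few reads and did not reach an RPKM of 1. They are named here after their values were seen, and they rest on 1 library per condition. *T*, which encodes Brachyury and is a β-catenin target in the streak, had 6 reads in shLuc cells against 47 in shKdm5b cells (0.0375 and 0.316 RPKM, counting interval of the log2 ratio 1.85 to 4.59). *Cdx1*, a caudal homeobox gene, had 4 and 26 reads (counting interval 1.28 to 4.78). *Wnt3*, the ligand gene needed for streak formation, had 53 and 127 reads, with 0.218 and 0.561 RPKM and a log2 ratio of 1.06. Other genes of this kind lay on the opposite side or had intervals that include 0, with *Evx1* at 14 and 2 reads, *Mixl1* at 50 and 35, *Cdx2* at 16 and 10, *Cdx4* at 7 and 4, and *Tbx6* at 44 and 53. Of 8 listed streak and mesoderm markers, *Eomes* alone passed an RPKM of 1, at 2.45 and 4.05, a log2 ratio of 0.70.

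Neural markers in the same libraries were mixed, with *Nes* higher at 1.78 and 3.24 RPKM, *Tubb3* lower at 36.4 and 14.0, *Pax6* within 1.5-fold, and *Sox1* at the edge of it with a log2 ratio of 0.55, which the GC correction moved to 1.23. The part of these cell types in the differences of *Lef1* and *Tcf7* was not tested.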
